A study of Mus musculus with 4 samples.

Results

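The genes described here encode the initiation and elongation factors of translation. They were the rows whose gene symbol began with Eif or Eef and a number, without the eIF2 kinases (symbols beginning with Eif2ak). Of the 33924 gene symbols in the counts, 67 met this rule. Of these, 58 were factors or their direct regulators, 5 were Argonaute genes that the annotation still lists under an older name (Eif2c1 to Eif2c5) and 4 were pseudogenes. The data were 4 libraries of capped RNA from the liver of C57BL6 mice (C57BL/6Rj in the study's methods), 1 for each of the ages 3 months (labelled Young), 9 months (Adult), 15 months (Old) and 21 months (Very old). The mice were male, and no treatment or allele is named for any age. Each library was a pool of 24 mice (6 times of day with 4 mice each), so that 1 library stood for each age and there was no replicate error for any value. All statements below therefore compare these 4 libraries, and intervals cover counting error only. Reads were not marked by molecule, so that copies made when the library was amplified could not be told from separate molecules. Where such copies were counted, the intervals are too narrow and the p values for differences between counts too small. The size of this effect was not measured.

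Translation begins when eIF2 brings the initiator tRNA to the small ribosomal subunit, with eIF1, eIF1A, eIF5 and the large scaffold eIF3. The eIF4F complex (eIF4E on the cap, the scaffold eIF4G and the helicase eIF4A) loads this assembly on a capped message, which is then scanned to the start codon. During elongation eEF1A delivers each aminoacyl-tRNA and eEF2 moves the ribosome on by a codon. The liver spends much of its protein synthesis on secreted plasma proteins. In liver as elsewhere, nutrients and insulin act on this machinery through the kinase mTORC1, which phosphorylates the 4E-BP proteins and thereby frees eIF4E.

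In order of age, the libraries held 955934, 958586, 525772 and 735962 gene counts, so that the 15 month library was the smallest. Of all records, between 72.2% and 76.7% had no unique place in the genome and were not counted on genes. All 7 hepatocyte markers had counts in every library and together took between 96171 and 105961 counts per 1000000 gene counts (cpm). The 3 skeletal muscle markers were at 0 in every library. The summed level of 5 B and plasma cell markers (of which 1 was at 0 in every library) was 3.14, 14.6, 45.6 and 65.2 cpm from 3 to 21 months, and that of 4 T cell markers (1 at 0 in every library) was 1.05, 8.35, 3.80 and 21.7 cpm. The 5 endothelial markers took 416, 322, 274 and 304 cpm, lower in all 3 older libraries, and the 5 stellate cell markers 241, 439, 382 and 346 cpm, higher in all 3. The 4 red blood cell markers took 1455, 2260, 1647 and 1265 cpm, the 7 macrophage markers found in the files between 405 and 514 cpm, the 4 cholangiocyte markers between 6.26 and 24.5 cpm and the 3 neuron markers at most 9.51 cpm. The part of these cells in the values below was not tested. In pooled bulk tissue, fewer cells of a type cannot be told apart from less RNA per cell.

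A single gene, Eef1a1 (eEF1A1, the carrier of aminoacyl-tRNA), held most of the counts of the family, and its share was larger in the 21 month library than in the other 3. Eif4ebp1, which encodes the eIF4E inhibitor 4E-BP1, had a higher level in all 3 older libraries than at 3 months. The eIF3 subunits Eif3l and Eif3f were lower in all 3 older libraries, though not Eif3l at 15 months when libraries were scaled on Gapdh. For most other members the 4 counts did not pass a test of their differences, and many of these had few counts. All 67 members together took 2.24% of gene counts at 3 months (95% Wilson interval 2.21 to 2.27), 2.08% at 9 months (2.05 to 2.11), 2.42% at 15 months (2.38 to 2.46) and 3.45% at 21 months (3.40 to 3.49). Without Eef1a1 the shares were 0.571%, 0.581%, 0.709% and 0.616%, so that the 15 month library and not the 21 month library was then the highest. Without Eef1a1, Eef2 and Eif4ebp1 they were 0.286%, 0.254%, 0.277% and 0.285%, and the intervals at 3, 15 and 21 months overlapped.

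**Figure D1:**
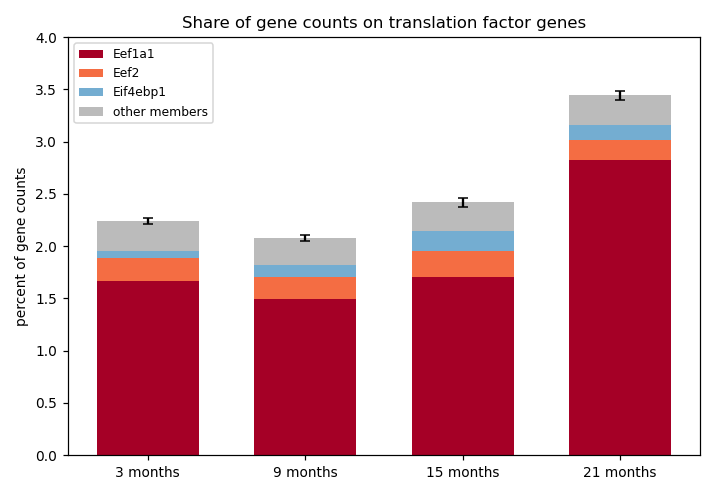
Percent of all gene counts (vertical axis) taken by translation factor genes in the 4 libraries (3, 9, 15 and 21 months), split into Eef1a1, Eef2, Eif4ebp1 and the other members, with the 95% Wilson interval of the sum as a bar. The sum was 2.24%, 2.08%, 2.42% and 3.45%, and the step at 21 months lay in Eef1a1.

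Of the 67 members, 58 had a count in every library, 5 had counts in some libraries and 4 had none. Their 4 counts were compared with Pearson's chi-square test, which asks whether the counts differ by more than counting noise once each library is scaled by its geometric mean (the scale of the centered log-ratio, clr). Of the 58 members, 15 passed an adjusted p of 0.05 (25.9%), against 25.3% of all genes tested, so that the share of members that passed was near that of all genes. The 15 were Eef1a1, Eef2, Eif4ebp1, Eif3c, Eif3f, Eif3j, Eif3k, Eif3l, Eif4a1, Eif4a2, Eif4e3, Eif4g1, Eif5a, Eif5b and Eif6. For 12 of the 58 members the smallest expected count was under 5, where the chi-square p is approximate. Of the members that passed, Eif3j and Eif4e3 were among these. When 1 library was left out, 11 members passed without the 3, the 9 or the 15 month library (19.0% of those tested, against 14.1%, 17.4% and 17.2% of all genes), and 8 passed without the 21 month library (13.6%, against 17.8%). Only Eef1a1, Eif4ebp1 and Eif3f passed in each of these 4 fits. A linear trend over age, fitted with edgeR's quasi-likelihood test, called 0 of 44 members tested, against 0.108% of all genes tested. At an unadjusted p of 0.05 it passed 2 of the 44 members and 290 of the 5569 genes. DESeq2's Wald test also called 0, with 2 of 63 members and 123 of 15067 genes under an unadjusted p of 0.05.

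**Figure D2:**
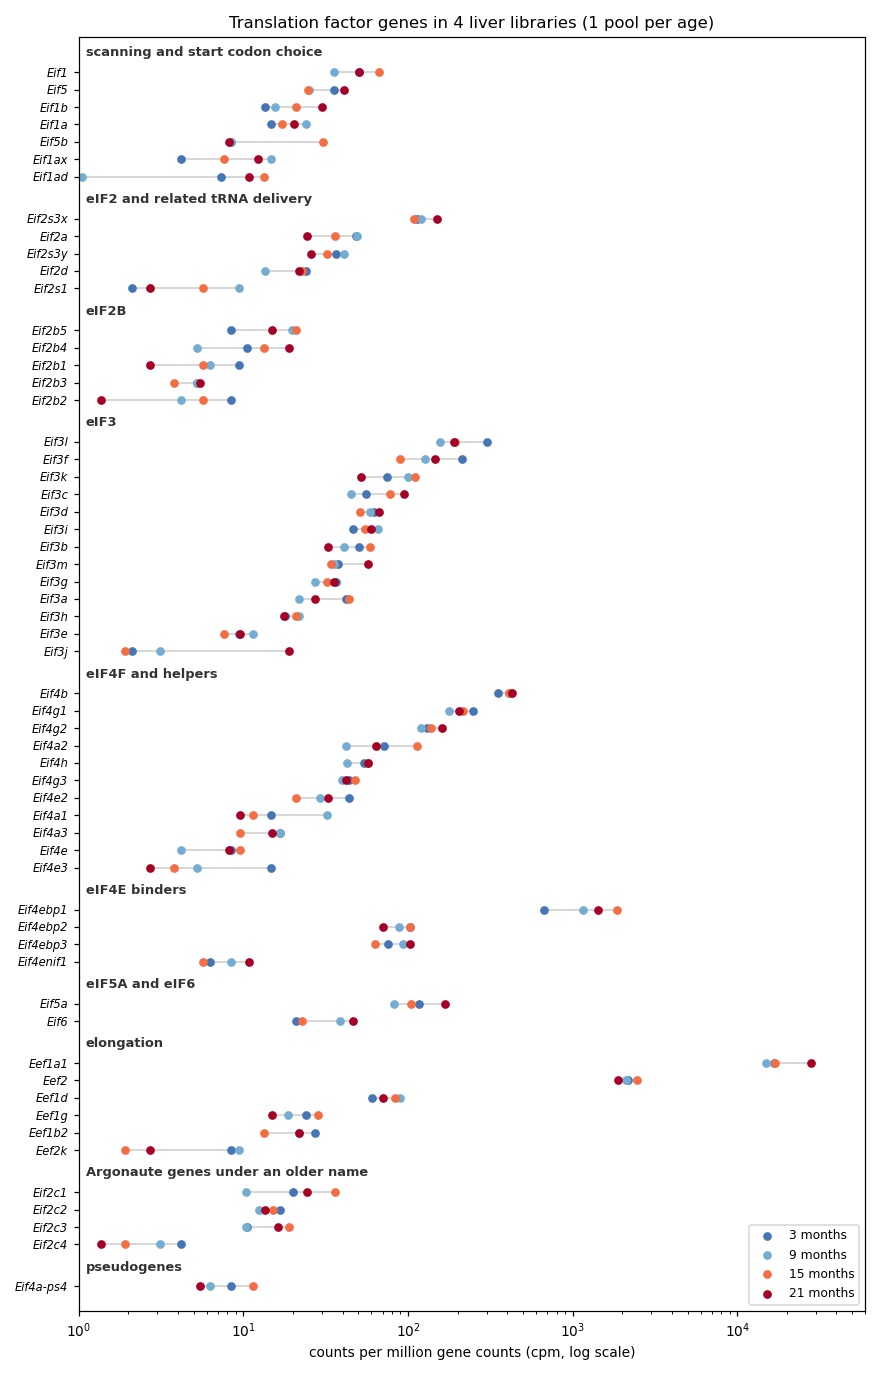
Counts per 1000000 gene counts (cpm, horizontal log axis) of the 58 members with a count in every library, ordered by role and then by level, with 1 point per age. Eef1a1 lay between 14971 and 28288 cpm, Eef2 and Eif4ebp1 between 671 and 2465 cpm, and most other members under 100 cpm.

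The first bases of a capped message matter for this family, because many messages of the translation machinery start with a C followed by a run of C and T, the 5′ terminal oligopyrimidine (TOP) form, which links their translation to mTORC1. The libraries were made from capped 5′ ends, but the counts are per gene and do not give the start used. The annotated starts of some members are therefore shown from the NCBIM37 assembly with GENCODE M1 transcripts. They include members that did not pass the chi-square test and leave out others that did. The lines thus do not show how common the tract was among members that passed. Each line gives the first 30 bases of 1 annotated transcript per gene, one with the tract where the gene has any, 5′ to 3′, and capitals mark a C within the first 10 bases that is followed by at least 4 bases that are each C or T, together with the whole run.
Eif3f: CTCTTTCTCggcaagatggcttctccggcc
Eif3l: tccgCTCTCTCCCacgggcttctggagcgc
Eif3k: acaCCTCTCTTCCggtcctctagtgctaag
Eif3h: CTTTCTTCCTgtctggctggaaacatggcg
Eif4b: CCTTTgcgttctctctccctctcccaacat
Eif2s3x: CTTTTCTCTCCgagcaagatggctgggggt
Eif2s3y: gccccgcccataggcttgtgcgttttgtga
Eif4ebp1: ggaaggggcgggccgggcacgagaagggct
Eef1a1: ttcccgagggtgggggagaacggtatataa
Eef2: gttgacgtcagcggtctcttccgccgcagc

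These starts lie at base 116077931 of chromosome 7 (plus strand) for Eif3f, base 78905653 of chromosome 15 (plus) for Eif3l, base 29766833 of chromosome 7 (minus) for Eif3k and base 51697027 of chromosome 15 (minus) for Eif3h. They lie at base 101904354 of chromosome 15 (plus) for Eif4b, base 91457990 of chromosome X (minus) for Eif2s3x and base 346986 of chromosome Y (plus) for Eif2s3y. They lie at base 28370799 of chromosome 8 (plus) for Eif4ebp1, base 78329531 of chromosome 9 (minus) for Eef1a1 and base 80639376 of chromosome 10 (plus) for Eef2. The tract was found at the start of at least 1 annotated coding transcript for 27 of the 62 members that have one (43.5%). Among all 22611 coding genes it was found in 27.2%, and among the 8269 coding genes with a count in every library in 33.1%. By role, it was found in 7 of 13 eIF3 genes and 7 of 12 genes of eIF4F and its helpers. It was found in 3 of 6 genes of eIF2 and related factors and 2 of 5 of eIF2B. The counts were 2 of 8 elongation genes, 1 of 7 scanning genes, 1 of 4 eIF4E binders and 1 of 3 of eIF5A and eIF6. The other genes with the tract were 3 of 4 Argonaute genes. A gene with more annotated transcripts can hold the tract more easily, which was not adjusted for. Eef1a1 and Eef2 are textbook TOP messages, and these letters were not in the first 10 bases of any transcript annotated for them. The printed line of Eef2 holds ctcttcc after its first 10 bases, and that of Eef1a1 ends in tatataa. The absence, and the count of 2 of 8 elongation genes, thus describe annotated starts. It does not show that the messages made in liver lack the tract, because the starts used were not measured.

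Among the elongation factors, Eef1a1 (ENSMUSG00000037742.8, chr9:78326256-78336958, minus strand) had 15969, 14351, 8990 and 20819 counts at 3, 9, 15 and 21 months. The 3, 9 and 15 month libraries were close to each other at 1.67%, 1.497% and 1.71% of gene counts, and the 21 month library stood apart at 2.83% (95% Wilson interval 2.79 to 2.87). On the clr scale the 21 month library was 1.65-fold the 3 month library (95% exact interval 1.61 to 1.68), 1.79-fold the 9 month library (1.76 to 1.83) and 1.76-fold the 15 month library (1.72 to 1.81). The fold at 9 months was 0.919 (0.898 to 0.940) and at 15 months 0.936 (0.912 to 0.961). The chi-square statistic was 4219, with a p too small to be represented. The fitted trend was 0.71 on the log2 scale from 3 to 21 months (SE 0.30, edgeR unadjusted p = 0.0219, adjusted p = 0.794), and without the 21 month library it was -0.01. It was the only member among the 10 genes with the most counts. Eef1a2, the form of muscle and neurons, had no count in any library, which allows at most 3.14, 3.13, 5.71 and 4.08 cpm (3 counts) from 3 to 21 months.

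Eef2 (ENSMUSG00000034994.9, chr10:80639376-80645252, plus strand), the translocation factor, had 2088, 2022, 1296 and 1389 counts. At 9 and 15 months it was 0.990-fold (95% exact interval 0.931 to 1.05) and 1.03-fold (0.962 to 1.11) the 3 month library, and at 21 months 0.841-fold (0.785 to 0.901). It therefore differed from Eef1a1 in the 21 month library, where Eef1a1 was higher and Eef2 lower than at the other ages. The chi-square adjusted p was 1.98e-06, and 0.820 without the 21 month library. Its variance of clr was 0.00843, lower than that of all but 2.92% of genes, so that the difference at 21 months was small in size. The ratio of these members can be read from their parts of the members' own counts: Eef1a1 took 74.5%, 72.1%, 70.7% and 82.1% of them, and Eef2 9.74%, 10.2%, 10.2% and 5.48%.

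The nucleotide exchange factor of eEF1A is made of subunits encoded by Eef1b2, Eef1d and Eef1g. Eef1d had 58, 86, 44 and 52 counts and Eef1g 23, 18, 15 and 11 counts, and neither passed the chi-square test (adjusted p = 0.189 and 0.559). Eef1b2 had 26, 21, 7 and 16 counts. At 15 months it was 0.448-fold the 3 month library, with an exact interval of 0.164 to 1.06 that includes no difference. Eef2k, the kinase that inhibits eEF2, had 8, 9, 1 and 2 counts (adjusted p = 0.237). Its fold at 21 months had an exact interval of 0.0327 to 1.58, which includes both no difference and a 2-fold decrease. Eef1e1, a protein of the multisynthetase complex, had 1 count in all, in the 15 month library.

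Among members with at least 20 counts in every library, Eif4ebp1 was the furthest above the 3 month library. Eif4ebp1 (ENSMUSG00000031490.5, chr8:28370799-28386128, plus strand) had 641, 1113, 973 and 1054 counts, which are 671, 1161, 1851 and 1432 cpm. All 3 older libraries were above the 3 month library, and the 15 month library was the highest. The folds against 3 months were 1.78 (95% exact interval 1.61 to 1.96), 2.52 (2.28 to 2.79) and 2.08 (1.88 to 2.30) at 9, 15 and 21 months. The 21 month library was 0.824-fold the 15 month library (0.754 to 0.900), so that the level did not climb at every step. The chi-square adjusted p was 2.24e-77. The trend over age was 1.17 on the log2 scale (SE 0.38, edgeR unadjusted p = 0.00323), with an adjusted p of 0.383 over all genes, and thus did not pass. Without the 21 month library the fitted trend, expressed over the same span of ages, was 2.14 with an adjusted p of 0.0122, and without the 3 month library it was 0.35 with an adjusted p of 0.998.

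The other 4E-BP genes did not show this pattern. Eif4ebp2 had 98, 84, 54 and 52 counts and folds of 0.877, 0.916 and 0.671 at 9, 15 and 21 months (adjusted p = 0.260). Eif4ebp3 had 72, 89, 33 and 76 counts and folds of 1.26, 0.762 and 1.33 (adjusted p = 0.0758). The exact interval of Eif4ebp1 at 21 months (1.88 to 2.30) lay above that of Eif4ebp2 (0.470 to 0.949) and only just above that of Eif4ebp3 (0.954 to 1.87). For Eif4ebp2 and Eif4ebp3 the intervals at the other ages are not given here. Eif4ebp3 overlaps Ankhd1 on the same strand. Per kilobase of annotated exon, Eif4ebp1 had on average 1303 cpm, Eif4ebp3 112 cpm and Eif4ebp2 50.9 cpm. Such values compare levels between genes only roughly, because reads of a 5′-end library do not increase with length. Eif4enif1, the eIF4E transporter 4E-T, had 6, 8, 3 and 8 counts.

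The eIF4E genes themselves had low counts. Eif4e, the cap-binding subunit, had 8, 4, 5 and 6 counts, and Eif4e2, a cap-binding homologue that does not bind eIF4G in the usual way, had 42, 28, 11 and 24. The fold of Eif4e2 at 15 months was 0.435 (exact interval 0.202 to 0.861), but its 4 counts did not pass the chi-square test (adjusted p = 0.161). Eif4e3 had 14, 5, 2 and 2 counts. Its fold at 21 months was 0.181 (0.0199 to 0.787) and its adjusted p 0.0444, which was 0.0529 with TMM scale factors and 0.0514 with library totals. It was 0.798, 0.0624 and 0.114 without the 3, the 15 or the 21 month library. Eif4e3 lies within the same stretch as Foxp1 on the same strand. The germ cell form Eif4e1b had no count in any library.

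Among the scaffolds of eIF4F, Eif4g1 had 237, 169, 113 and 150 counts. Its folds of 0.729, 0.793 and 0.800 placed all 3 older libraries below the 3 month library, and their intervals overlapped each other. The adjusted p was 0.0418, and it was 0.0835 with TMM scale factors, 0.0596 with DESeq2 size factors, 0.828 without the 3 month library and 0.130 without the 9 month library. Eif4g2, which encodes the homologue DAP5, had 125, 115, 73 and 118 counts, with folds between 0.941 and 1.19. Eif4g3 had 42, 38, 25 and 31 counts. Its variance of clr was 0.00158, lower than that of all but 0.207% of genes and below the 0.0306 that counting noise alone would give on average, so that 0.00158 says little about its true stability.

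The helicase eIF4A has several genes in mouse. Eif4a1 (chr11:69480438-69485925, minus strand) had 14, 31, 6 and 7 counts and was 2.26-fold higher at 9 months than at 3 months (exact interval 1.17 to 4.61). Its adjusted p was 0.00462, and 0.706 without the 9 month library. Eif4a2 (chr16:23107517-23114209, plus strand) had 68, 40, 60 and 47 counts, with a lower value at 9 months (0.602-fold, 0.397 to 0.902) and a higher value at 15 months (1.47-fold, 1.02 to 2.11). Its adjusted p was 0.00135, but 0.0829 without the 9 month library and 0.138 without the 15 month library. In the 9 month library Eif4a1 was thus high and Eif4a2 low. Both genes hold small nucleolar RNA genes on the same strand within their span. Eif4a3, the helicase of the exon junction complex, had 16, 16, 5 and 11 counts (adjusted p = 0.678).

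Of the helpers of eIF4A, Eif4b was among the steadier members. Eif4b, which stimulates the helicase, had 339, 394, 216 and 317 counts, or 355, 411, 411 and 431 cpm. Its folds were 1.19, 1.06 and 1.18, its variance of clr was 0.00722, and its chi-square adjusted p was 0.157. Eif4h had 52, 41, 30 and 42 counts, with folds between 0.806 and 1.02.

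Within eIF3, 5 of 13 subunits passed the chi-square test, which 25.3% of all genes passed, and they differed in direction. Eif3l (ENSMUSG00000033047.4, chr15:78905653-78924830, plus strand) had 289, 151, 101 and 140 counts. The 3 month library was the highest, and the 3 older libraries were at 0.534 (95% exact interval 0.436 to 0.653), 0.581 (0.459 to 0.731) and 0.613 (0.497 to 0.752) of it, close to each other. The adjusted p was 4.16e-10, and 0.714 without the 3 month library, so that the difference lay between this library and the rest. Eif3f (ENSMUSG00000031029.6, chr7:116077931-116086465, plus strand) had 203, 121, 47 and 108 counts. Its folds were 0.610 (0.483 to 0.767), 0.385 (0.274 to 0.531) and 0.673 (0.528 to 0.854), with the 15 month library the lowest. The adjusted p was 2.15e-08, and the call held when any 1 library was left out. The trend tests of Eif3l and Eif3f gave -0.60 and -0.64 on the log2 scale (SE 0.37 and 0.39, edgeR adjusted p = 0.998 for both).

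The other 3 subunits that passed lost the call without the 21 month library. Eif3c, a core subunit, had 53, 43, 41 and 70 counts and was 1.67-fold higher at 21 months than at 3 months (1.15 to 2.43). Its adjusted p was 0.00875, and it was 0.315 without the 21 month library and 0.0810 without the 9 month library. Eif3k, a peripheral subunit that binds Eif3l, had 71, 96, 58 and 38 counts. It was 1.38-fold and 1.36-fold the 3 month library at 9 and 15 months and 0.677-fold at 21 months (0.444 to 1.02), with an adjusted p of 0.00488, and 0.229 without the 21 month library. At 21 months it was 0.490-fold the 9 month library (0.327 to 0.720) and 0.498-fold the 15 month library (0.322 to 0.763). Eif3j had 2, 3, 1 and 14 counts, a fold of 8.85 at 21 months (2.03 to 80.2) and an adjusted p of 3.24e-04, and 0.896 without the 21 month library. Of the 66 windows of 35 bases in its first 100 transcript bases, 77.3% had another place in the genome, and it lies opposite Spg11.

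The other 8 eIF3 subunits did not pass. Eif3d, which can itself bind certain caps, had 59, 56, 27 and 49 counts, Eif3i 44, 63, 29 and 44, and Eif3b 48, 39, 31 and 24. The largest subunit, Eif3a, had 40, 21, 23 and 20 counts (adjusted p = 0.153). Eif3g, Eif3h and Eif3e had between 4 and 35 counts per library, and Eif3m between 18 and 42. The median log2 fold of the 11 eIF3 subunits with at least 20 counts in a library was -0.27, -0.06 and -0.09 at 9, 15 and 21 months, against -0.04, -0.16 and -0.07 for all genes.

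Among the factors of start codon choice, Eif5b, which joins the large subunit, had 8, 8, 16 and 6 counts. Its 15 month library was 3.33-fold the 3 month library (exact interval 1.34 to 8.97), with an adjusted p of 0.0110, and 0.992 without the 15 month library. Eif1 had 48, 34, 35 and 37 counts (adjusted p = 0.327). Its paralogue Eif1b had 13, 15, 11 and 22 counts, and its fold of 2.14 at 21 months (1.03 to 4.62) went with an adjusted p of 0.230. Eif5, the GTPase-activating protein of eIF2, had 34, 24, 13 and 30 counts. The eIF1A genes Eif1a and Eif1ax and the related Eif1ad had between 1 and 23 counts per library.

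None of the genes of eIF2 and its relatives passed the chi-square test. The γ subunit is encoded on both sex chromosomes, by Eif2s3x (chrX:91434046-91458201) and Eif2s3y (chrY:346986-365290). Eif2s3x had 109, 115, 57 and 110 counts and Eif2s3y 35, 39, 17 and 19. The folds of Eif2s3x at 9, 15 and 21 months were 1.08, 0.869 and 1.28, and those of Eif2s3y were 1.14, 0.807 and 0.686, with overlapping intervals at each age. The adjusted p values were 0.204 and 0.414. Eif2a, a separate tRNA-binding factor that is not a subunit of eIF2, had 46, 47, 19 and 18 counts. Its fold at 21 months was 0.495 (0.270 to 0.870), with an adjusted p of 0.0754, and the fold was 0.502 with TMM scale factors. Eif2s1, the α subunit that is phosphorylated in the integrated stress response, had 2, 9, 3 and 2 counts, and Eif2s2, the β subunit, had 8, 7, 4 and 0. The 5 genes of eIF2B, which recharges eIF2 with GTP, had between 1 and 19 counts per library, and none passed.

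Eif5a, the hypusine-containing factor that helps ribosomes past difficult stretches, had 112, 79, 55 and 123 counts. It was 0.721-fold the 3 month library at 9 months (0.534 to 0.971) and 1.39-fold at 21 months (1.07 to 1.81), with an adjusted p of 2.92e-04, and 0.210 without the 21 month library. The 21 month library was also 1.93-fold the 9 month library (1.44 to 2.59) and 1.70-fold the 15 month library (1.23 to 2.38). Its paralogue Eif5a2 had 1 count in all. Eif6, which keeps the large ribosomal subunit from joining too early, had 20, 37, 12 and 34 counts. The 9 and 21 month libraries were at 1.89-fold (1.07 to 3.44) and 2.15-fold (1.20 to 3.94) the 3 month library, and the 15 month library was at 0.997-fold. The adjusted p was 0.0394, and 0.199, 0.0768 and 0.102 without the 3, 15 or 21 month library.

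**Figure D3:**
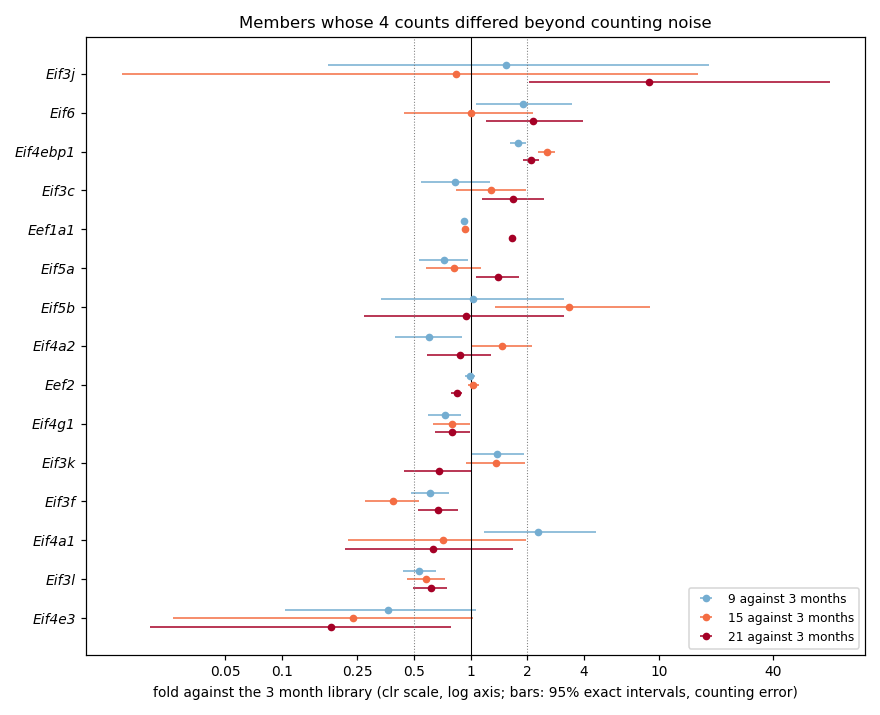
Fold against the 3 month library (horizontal log axis, clr scale) at 9, 15 and 21 months for the 15 members that passed the chi-square test, ordered by the fold at 21 months, with exact 95% intervals for counting error. Eif4ebp1 lay above 1 and Eif3l, Eif3f, Eif4g1 and Eif4e3 below 1 in all 3 comparisons, and Eif3j, Eif6, Eif4ebp1, Eif3c, Eef1a1 and Eif5a lay above 1 at 21 months with intervals that exclude 1.

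The Argonaute genes, which act in microRNA silencing and not in initiation, had low counts. Eif2c2, the catalytic Argonaute 2, had 16, 12, 8 and 10 counts, and Eif2c1, Eif2c3 and Eif2c4 had between 1 and 19 per library. None of these 4 passed the chi-square test, and Eif2c5 had no count. Of the pseudogenes, Eif4a-ps4 had 8, 6, 6 and 4 counts, Eif3s6-ps2 had 4 counts in the 9 month library only, Eif5al3-ps had 2 counts in all and Eif3s6-ps1 had none.

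The variance of clr across the 4 ages was the measure of stability used for these libraries. Its median over the 58 members was 0.0853, against 0.160 over all 8704 genes with a count in every library. The median mean clr of the members was 0.55, against -0.21 for all genes, and genes with more counts have less counting noise in this variance. Of the 58 members, 36 had both a mean above and a variance below the medians of all genes, and 38.1% of all genes met both. For 16 members the variance was smaller than the counting noise expected from their own counts. Among the 23 members with at least 20 counts in every library, the lowest variances were those of Eif4g3 (0.00158), Eif4b (0.00722) and Eef2 (0.00843). The highest were those of Eif4ebp1 (0.159), Eif3f (0.154) and Eif4a2 (0.135).

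**Figure D4:**
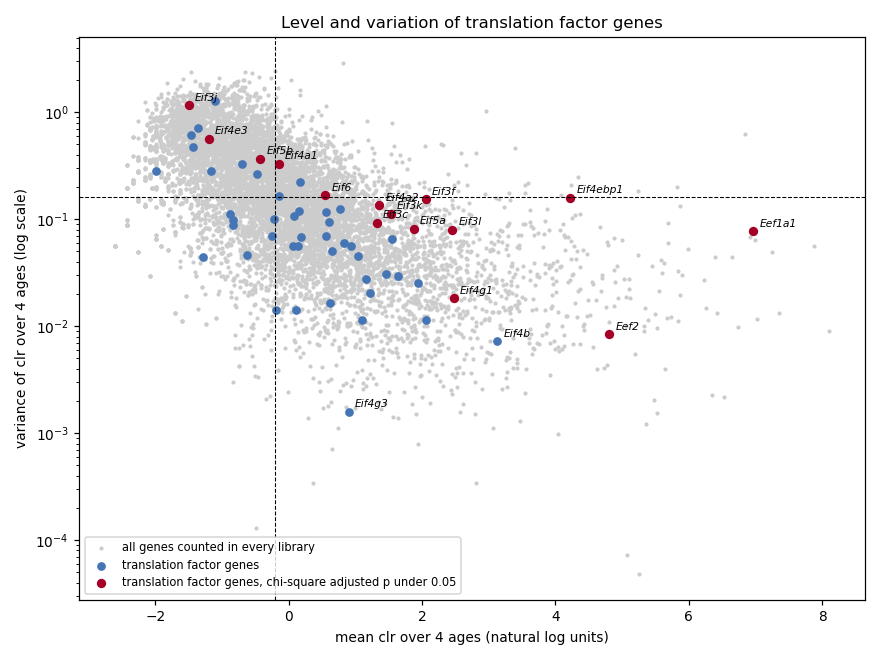
Mean clr (horizontal axis, natural log units) and variance of clr (vertical log axis) over the 4 ages for all 8704 genes (grey) and the 58 members (blue, or red where the chi-square test passed), with the medians of all genes as dashed lines (-0.21 and 0.160). Eef1a1, Eef2 and Eif4ebp1 stand to the right, and Eif4ebp1 lay at the median variance of all genes in spite of its high level.

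In the 37 members with a count in every library and at least 20 counts in 1 of them, few passed a 2-fold difference from the 3 month library. With 1 library per age these are values without a test, and the 3 month library is common to all 3 comparisons. At 9 months 1 member was past 2-fold higher (Eif4a1), against 7.43% of all genes in that filter, and 0 members were past 2-fold lower, against 9.1%. At 15 months 1 was higher (Eif4ebp1), against 6.33%, and 3 were lower (Eif3f, Eif4e2 and Eef1b2), against 13.6%. At 21 months 3 were higher (Eif4ebp1, Eif1b and Eif6), against 7.08%, and 1 was lower (Eif2a), against 10.9%. The median log2 fold of the 37 members was -0.11, -0.06 and -0.05 at 9, 15 and 21 months, against -0.04, -0.16 and -0.07 for all genes in the filter. With library totals in place of the geometric mean, the members' median at 15 months was 0.06.

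The reads that were counted had to have a single place in the genome, and several members have processed pseudogenes with nearly the same sequence. Windows of 35 bases, the length of the reads, were therefore searched in NCBIM37 with at most 1 mismatch. Of the windows in the longest coding transcript of Eef1a1, 94.5% had another place, with a median of 8 other places, but in the first 100 bases of its transcripts the share was 6.57%. For Eef2 the shares were 57.0% in the longest transcript and 24.2% in the first 100 bases. For Eif4ebp1 they were 35.9% and 47.0%, for Eif4a1 90.7% and 50%, and for Eif3m 84.6% and 58.0%. Reads from windows with an equally good match elsewhere would not have a unique place. The shares do not separate such windows from those whose other place differs by 1 mismatch. How many reads these genes lost was not measured. In Eif3c, Eif3f, Eif3k, Eif3l, Eif4e3, Eif4g1, Eif5b and Eif6 no window of the first 100 bases had another place. Of the 40 members with a count in every library and no second place in this stretch, 8 passed the chi-square test (20%). Second places were searched for members only, so that the 25.3% of all genes is not a like comparison. The 40 also leave out Eef1a1, Eef2 and Eif4ebp1, which had many counts.

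**Figure D5:**
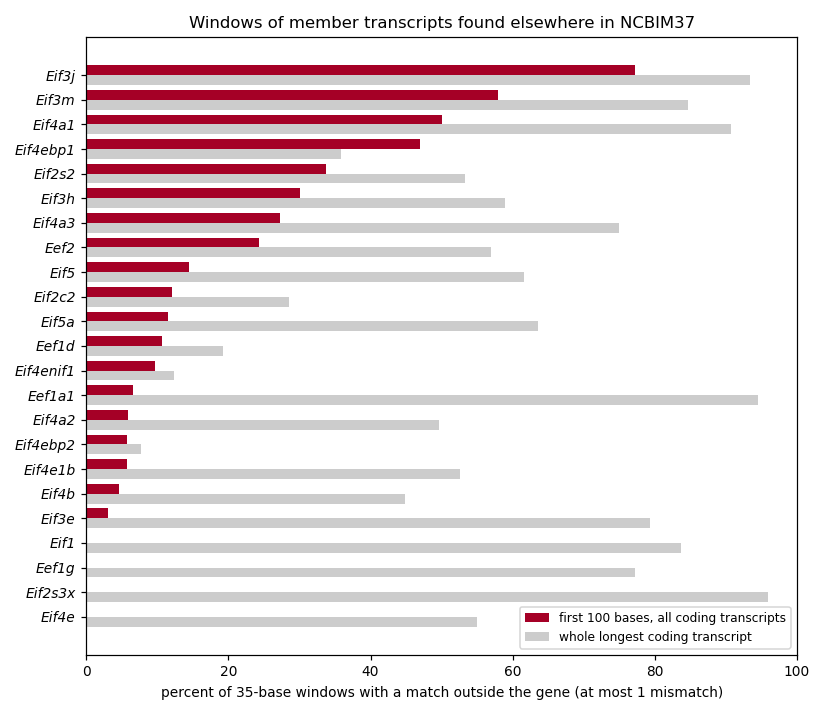
Percent of 35-base windows (horizontal axis) with a match outside the gene, at most 1 mismatch, in the first 100 bases of all coding transcripts (red) and in the whole longest coding transcript (grey), for members with any such window near the start or more than 50% of them overall. Eif3j and Eif3m had the highest shares near the start, 77.3% and 58.0%, and Eef1a1 had 94.5% overall but 6.57% near the start.

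The genes around these factors were followed as a list of 54, of which 39 had a count in every library. Of the 39, 7 passed the chi-square test, against 25.3% of all genes. Only 2 of the 7 had over 50 counts in any library. Atf5, a transcription factor of the integrated stress response, had 657, 483, 313 and 482 counts (adjusted p = 7.89e-05). Its folds against 3 months were 0.752, 0.792 and 0.928 at 9, 15 and 21 months. Gspt1, the release factor eRF3a, had 63, 50, 12 and 30 counts (adjusted p = 0.00611), with its lowest value at 15 months. Tufm, the mitochondrial elongation factor Tu, had 30, 6, 5 and 8 counts and was at 0.205, 0.277 and 0.337 of the 3 month library (adjusted p = 3.83e-04). Ddit3, the stress factor CHOP, had 4, 22, 7 and 5 counts with its highest value at 9 months (adjusted p = 0.00504). Eefsec, which delivers selenocysteine tRNA, had 12, 16, 8 and 28 counts (adjusted p = 0.0113). The ribosome recycling factor Abce1 had 19, 12, 19 and 8 counts (adjusted p = 0.0456), with its highest value at 15 months once scaled. The S6 kinase gene Rps6kb2 had 14, 4, 3 and 1 (adjusted p = 0.0242), so few that the chi-square p is approximate.

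Among regulators upstream of the members, Atf4, the main translationally controlled transcription factor of the stress response, had 95, 95, 65 and 69 counts with folds of 1.02, 1.14 and 0.918 (adjusted p = 0.756), and Mtor had 35, 31, 32 and 29 counts with folds of 0.906, 1.52 and 1.05 (adjusted p = 0.306). Of the mTORC1 genes with at least 20 counts in a library, Rheb, its activating GTPase, was 3.54-fold higher at 21 months on 5, 21, 8 and 14 counts, and Akt1s1, an inhibitory subunit, was at 0.436 on 29, 12, 10 and 10 counts. Neither passed the chi-square test (adjusted p = 0.0596 and 0.0710). Of the eIF2 kinases, Eif2ak1, Eif2ak3 and Eif2ak4 had between 3 and 28 counts per library and none passed, and Eif2ak2 had 3, 1, 0 and 12 counts.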

How the data were processed

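Mouse liver RNA was pooled by age (24 mice per pool, 1 μg of RNA per mouse). The authors digested RNA without a cap, joined linkers to the 5′ ends left after decapping, sequenced 35 bp reads on a SOLiD 5500xl and mapped them to mm9 with the CLC Genomic workbench (similarity 0.95). The submitters' processing notes name HTSeq, without a version. The deposited files hold raw counts per gene symbol, not normalised, and whether strand was used is not given in the sources used here. Summary rows that name no gene were left out. They held over 90% of records, mostly reads without a unique place.

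The clr is the natural log of a count over the geometric mean of the 8704 genes with a count in every library, and its variance has a divisor of 3. Chi-square tests (3 degrees of freedom) and edgeR trends (TMM, filterByExpr, 2 residual degrees of freedom, 5569 genes) were run over all genes with Benjamini-Hochberg adjustment and a threshold of 0.05. The trend test was tested on simulated data. Intervals of ratios are exact Clopper-Pearson intervals, those of shares Wilson intervals (95%). Values are given for members that passed a test or 2-fold, the 8 of highest mean clr, the extremes of variance and paralogue sets, with other values by range. Further members, Atf4 and Mtor were named after their values had been seen. The members and lists were chosen with earlier results of these data known. Alternatives were other scale factors, library totals, Gapdh, other filters and folds, pseudocounts of 0.5 and 1, thinning, DESeq2, and leaving out each library. Software was R 4.3.3, edgeR 4.0.16, DESeq2 1.42.0, Python 3.11.15, numpy 2.4.6, pandas 2.3.3, scipy 1.17.1, numba 0.67.0 and matplotlib 3.10.9.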

Additional observations from a re-analysis of the deposited data

How the results depend on the processing

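No paired analysis was possible because each age has 1 library. The number of members called by the age trend ran from 0 to 1 when a library was left out (the 1 was Eif4ebp1, without the 21 month library), and was 0 with each other setting tried. The fitted change of Eef1a1 was then -0.0067 on the log2 scale without the 21 month library and 1.27 without the 3 month library, against 0.71 with all 4. The number passing the chi-square test ran from 8 to 11 when a library was left out (14.1% to 17.8% of all genes passed), was 13 to 15 with other scale factors (25.1% to 25.6% of all genes), 11 of 36 members with at least 10 counts in every library (30.6%, against 37.3% of all genes), and 8 among members with no second place in their first 100 bases (an alternative chosen after seeing the data, as were those without Eef1a1 and without a minimum of 20 counts). Scaling on Gapdh moved the median of all genes by 0.40, 0.91 and 0.33 on the log2 scale at 9, 15 and 21 months, and library totals moved it by 0.13 at 15 months. With Gapdh the members' median log2 fold was 0.29, 0.84 and 0.29, the number of members past 2-fold was 5 at 9 months and 12 at 15 months, and the members above 0 numbered 27, 34 and 25 of 37, against 14, 14 and 17. On the Gapdh scale Eif3l was 1.09-fold and Eif4g1 1.49-fold the 3 month library at 15 months. Eef2 was 1.06-fold at 21 months, so that these directions reversed. Eif3f stayed lower and Eif4ebp1 higher in all older libraries. With library totals the members' median at 15 months was 0.064. Members past 2-fold were 0 at 9 months with at least 10 counts in every library. With a fold of 1.5 in place of 2, 10 members were past it at 9 months and 11 at 21 months. Without the minimum of 20 counts, 6, 10 and 11 were past 2-fold at 9, 15 and 21 months. The shares of all genes past the fold were not computed at these settings or with Gapdh. These counts therefore do not compare the members with other genes. Without the 10 most abundant genes the members' share was 0.765%, 0.819%, 0.963% and 0.850% from 3 to 21 months, and without Eef1a1 it was 0.571%, 0.581%, 0.709% and 0.616%, where Eef1a1 is itself among those 10. The cause of the other changes was not tested. The median variance of clr stayed between 0.0611 and 0.0980 over all settings. The 21 of 58 members with under 20 counts in each library could show only large differences.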
